A study of Mus musculus and synthetic construct with 9 samples.

Results

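In a massively parallel reporter assay (MPRA), a pool of short DNA sequences is placed in a reporter plasmid next to barcodes, the plasmid pool is transfected, and the barcodes are counted in the reporter mRNA and in the plasmid input. A sequence that recruits activators has more barcode reads in mRNA than its share of the plasmid predicts. A sequence that represses the reporter would give the opposite reading, fewer mRNA reads than its plasmid share predicts. An assay built to read activation leaves little room for it, since the reporter is weakly transcribed to begin with. The elements described here are the SNPs that gave this opposite reading for both alleles in MIN6 cells, a β cell line derived from a mouse insulinoma that still makes insulin.

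The members were chosen by their counts in standard culture. For each sequence, the counts of 5 RNA libraries and of 5 plasmid libraries were summed, and r is the log2 ratio of RNA to plasmid after adding 1 to each sum, minus the median of that ratio over the sequences with at least 500 plasmid counts. A value of 0 is therefore the typical sequence of the library. Less or more RNA than plasmid is meant relative to such a sequence. This holds for the tests below as well, except where scaling by total counts alone is named. A SNP was a member when both of its alleles, named _A and _B in the count tables, had at least 500 plasmid counts and r below -0.2. Of 6628 SNPs with both alleles, 6248 reached the plasmid minimum, 124 of these had at least 1 allele below the threshold, and 10 had both. The members are thus 10 SNPs with 20 of the 13628 sequences, and in a further 114 SNPs only 1 allele lay below. No member carried a second pair of sequences with the other allele of a neighbouring SNP.

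All groups are MIN6 cells transfected with plasmids that carry human sequences, outside of any chromosome and in a mouse cell. In standard culture the medium was left on the cells. For the DMSO group it was replaced after 6 h by medium with 0.025% DMSO, and for the Tg group by medium with 250 nM thapsigargin in 0.025% DMSO, where thapsigargin is a blocker of the calcium pump of the endoplasmic reticulum and induces ER stress. Cells were harvested at 30 h. DMSO and Tg had 5 RNA libraries each, and the methods give 5 transfection days for every condition. The standard culture table numbers its RNA libraries and its plasmid libraries from 1 to 6, and 5 of each were used to choose the members. Standard culture used another preparation of the plasmid library than DMSO and Tg, and DMSO and Tg share their 5 plasmid libraries. By the methods, the second preparation was grown in E. coli from the first, so it is not an independently built library. RNA libraries held 19851799 to 44899256 counts and plasmid libraries 23009482 to 36129587.

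Positions in hg19 were at hand for 8 of the 10 SNPs, from the study's supplementary tables. rs11073334 (chr15, position 38821150) lies in an intron of RASGRP1, which encodes an exchange factor that activates Ras, and is linked to the index SNP rs7403531. rs10872465 (chr6, 137294656) is intergenic, between SLC35D3, a member of the nucleotide sugar transporter family, and NHEG1, and is linked to rs6937795. rs13117737 (chr4, 4722422) is intergenic, between the antisense transcript STX18-AS1 and LOC101928279. rs6813882 (chr4, 164536921), rs78122234 (chr4, 1290873), rs3954169 (chr3, 186671978) and rs11892385 (chr2, 53395407) are listed with the index SNPs rs3792615, rs6815464, rs16861329 and rs9309245. rs502701 lies on chr1 at position 57597170. For rs62349869 and rs2173086 no position was at hand. The 6 members with an index SNP each had a different one. Among the 8 members with a position, the closest pair on 1 chromosome lay 3431549 bases apart, so their sequences do not overlap, and this could not be checked for rs62349869 and rs2173086. Within a SNP, _A and _B differ by the SNP and otherwise hold the same genomic sequence, so they are not independent elements.

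In standard culture, which fixed the membership, r of the 20 sequences ran from -0.40 to -0.21 with a median of -0.28. The lowest mean over both alleles was that of rs13117737, with -0.38 for _A and -0.30 for _B. It was followed by rs11073334 (-0.31 and -0.32), rs3954169 (-0.31 and -0.32) and rs62349869 (-0.23 and -0.40). Next came rs10872465 (-0.32 and -0.24), rs2173086 (-0.27 and -0.28) and rs502701 (-0.30 and -0.22). Closest to the threshold were rs6813882 (-0.23 and -0.22), rs78122234 (-0.22 and -0.22) and rs11892385 (-0.22 and -0.21). These values chose the members and are given as a description. They depended on the columns taken: with all 6 RNA and plasmid numbers rs3954169, rs62349869, rs502701 and rs78122234 were no longer members, and with the other column of RNA numbers 2, 4 and 6 rs502701 was not. The reading is small beside the range above 0: the lowest r of any sequence of the 6248 SNPs was -0.55 and the highest 10.3.

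The SNPs nearest to the threshold differed little on its 2 sides. Just inside, the higher r of the alleles was -0.22 for rs502701, -0.22 for rs78122234 and -0.21 for rs11892385. Just outside, it was -0.20 for rs7593730, -0.19 for rs6544669 and -0.19 for rs13143524.

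The plasmid counts of the members were low. Their sums over 5 libraries ran from 524 to 7345 with a median of 1326, against a median of 10839 over the 12496 sequences of the 6248 SNPs. They fell into 2 sets with a gap between 2524 and 4633, a split made after the values were seen. The 3 SNPs rs502701, rs6813882 and rs78122234 had 4633 to 7345 plasmid counts per sequence, and the other 7 SNPs had 524 to 2524. Of all 12496 sequences, 6.25% had fewer than 2600 plasmid counts, as did 14 of the 20 member sequences. Among the 158 SNPs whose smaller plasmid sum was from 500 to below 1000, 5 were members, or 3.17%. From 1000 to below 2000 it was 1 of 192 (0.521%), from 2000 to below 5000 it was 4 of 761 (0.526%), and none was a member among the 1990 SNPs from 5000 to below 10000 or the 3147 SNPs from 10000 upward.

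Counting error and the spread between libraries were widest where the plasmid was scarce. Within the class of 500 to below 1000 counts, 2.5% of the sequences had r below -0.38, and within the class of 10000 or more 2.5% had r below -0.14. The median SD over the 5 standard culture libraries was 0.201 in the first class and 0.0509 in the second. The width of the counting error is seen in exact binomial 95% intervals of r, which cover counting error only and take reads as independent molecules although no molecular identifiers were used. For rs502701_A the interval was -0.37 to -0.23, for rs3954169_A it was -0.55 to -0.08, and for rs11892385_B it was -0.43 to 0.00. Since r chose the members, their position below 0 is no further evidence. How far the low plasmid counts set the membership was not tested.

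The share of the members in the plasmid pool also differed between preparations. All 20 had a smaller share of the second plasmid batch, transfected for DMSO and Tg, than of the first, with log2 ratios from -1.86 for rs11892385_A to -0.06 for rs502701_A and a median of -0.42. Over all 12496 sequences the share was smaller in the second batch for 54.4%, and among those of the class of 500 to below 1000 plasmid counts for 80.4%, with a median log2 ratio of -0.45. In the second batch the members' plasmid sums were 164 to 6797.

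In standard culture, 1 RNA library (number 1) and 1 plasmid library (number 6) were not used to choose the members, and they give a single further value for each sequence. The log2 ratio of these libraries, centred in the same way, was below 0 for 16 of 20 member sequences, against 50.04% of the 12496. Its median over the members was -0.15, and its values ran from -0.38 for rs2173086_B to 0.39 for rs3954169_A. All 6 sequences of rs502701, rs6813882 and rs78122234 lay below 0, from -0.24 to -0.09, as did 10 of the other 14. The counting interval lay below 0 for 4 sequences, rs10872465_A (-0.25, from -0.50 to -0.01), rs10872465_B (-0.36, from -0.61 to -0.13), rs502701_B (-0.24, from -0.41 to -0.08) and rs6813882_A (-0.18, from -0.35 to -0.02), and it lay above 0 for none. The share of all 12496 sequences with such an interval was not computed, so the count of 4 has no background beside it. With 1 library on each side there is no replicate check on these values.

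In DMSO, with other transfections and a second plasmid batch grown from the first, the members' ratios were again mostly below 0, and 2 sequences passed the test. The mean ratio over the 5 DMSO libraries was below 0 for 18 of 20 sequences (53.7% of all 12496) and for both alleles of 8 of 10 SNPs (42.9% of all 6248), with a median of -0.22. The medians over the members in each DMSO library ran from -0.34 to -0.13 (SD 0.0935, n = 5). All 5 DMSO libraries lay below 0 for 8 of the 20 member sequences, against 21.1% of all 12496. The means above 0 were those of rs3954169_A and rs11892385_A, at 0.48 ± 0.26 and 0.54 ± 0.69 (SD, n = 5). By the quasi-likelihood test of edgeR, fitted over 13413 sequences, 2 of the 20 sequences, rs502701_A and rs6813882_B, had less RNA than plasmid at an FDR of 1%, where the background over all sequences was 8.18%. At an unadjusted p under 0.05, 7 had less RNA by edgeR (background 20.6%) and 9 by DESeq2 (background 23.7%). None had more RNA than plasmid, where the background was 19.8%, and DESeq2 also called none. The count with more RNA at an unadjusted p under 0.05 was 0 by edgeR and 1 by DESeq2, where 26.1% and 24.8% of all sequences passed. Without DMSO library 1 the count with less RNA was 4, with rs10872465_B and rs78122234_A added, where 1254 of 13413 sequences were called. DESeq2 gave 3 with less RNA at the FDR of 1%, with rs78122234_A added, where it called 1554 of 13413.

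The lowest adjusted p in DMSO was that of rs502701_A. In DMSO libraries 1 to 5 the log2 ratio of rs502701_A was -0.40, -0.65, -0.46, -0.31 and -0.40, from 451 to 627 RNA counts against a plasmid sum of 6103. All 5 lay below 0, and they overlapped with the standard culture libraries, which ran from -0.35 to -0.23. The fitted log2 ratio of RNA to plasmid was -0.44 ± 0.079 (SE), with an adjusted p of 1.5e-05. For rs502701_B the libraries read -0.46, -0.28, -0.09, -0.05 and -0.14, all below 0, and the fitted value was -0.19 ± 0.086 with an adjusted p of 0.071.

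For rs6813882 the allele past the test was the other one. The libraries of rs6813882_B read -0.20, -0.51, -0.27, -0.33 and -0.35 in DMSO, from 553 to 721 RNA counts, again all below 0. The fitted value was -0.32 ± 0.073 (SE), with an adjusted p of 0.00047. rs6813882_A read -0.23, -0.17, 0.03, -0.33 and -0.33, with a fitted value of -0.20 ± 0.086 and an adjusted p of 0.058. rs78122234, the remaining SNP with more than 4000 plasmid counts per sequence, passed for neither allele in the main edgeR fit. The fitted values were -0.25 ± 0.084 for _A (adjusted p = 0.017) and -0.21 ± 0.083 for _B (adjusted p = 0.039). By DESeq2, _A passed (adjusted p = 0.0079). By edgeR, _A also passed in run 1 only and without DMSO library 1 or 3 (adjusted p = 0.0096, 0.0026 and 0.0092). Without DMSO library 2, _B passed by edgeR (adjusted p = 0.0074). The DMSO libraries of rs78122234 ran from -0.50 to -0.03 for _A and from -0.44 to just below 0 for _B, so that all 10 were below 0.

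No member had less RNA than plasmid for both alleles at an FDR of 1% in DMSO, where the background over 6501 SNPs was 3.06%. DESeq2 also called no SNP for both. Both alleles of 3 of the 10 SNPs, rs502701, rs6813882 and rs78122234, had less RNA at an unadjusted p under 0.05 by edgeR and by DESeq2 alike, where 11.01% and 13.3% of all SNPs passed for both alleles. Those 3 SNPs have SDs of 0.114 to 0.189 over the DMSO libraries, and 29 of their 30 library values were below 0. In the 7 SNPs with fewer plasmid counts the SDs were 0.180 to 0.693 and 48 of 70 library values were below 0. These library values share alleles, libraries and plasmid sums, so they are not independent, and no share over all sequences was computed for them. The interval of the fitted difference is wide in the 7 SNPs: for rs13117737_A, the lowest of all in standard culture together with rs62349869_B, it was -0.86 to 0.02 around -0.42, and for rs62349869_B it was -0.66 to 0.30 around -0.18. For rs10872465_B, with fitted value -0.38 ± 0.14 (SE), the adjusted p was 0.032, and its libraries ran from -0.88 to 0.03.

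In Tg, measured against the same plasmid libraries as DMSO, the mean ratio was below 0 for 18 of 20 sequences (55.0% of all 12496) and for both alleles of 8 of 10 SNPs (42.2% of all 6248), with a median of -0.28. The medians over the members in each Tg library ran from -0.39 to -0.14 (SD 0.11, n = 5). All 5 Tg libraries lay below 0 for 4 of the 20 member sequences, against 14.2% of all 12496. The means above 0 were those of rs13117737_B, 0.05 ± 0.46, and rs2173086_A, 0.15 ± 0.73 (SD, n = 5). One sequence of 20, rs502701_A, had less RNA than plasmid at an FDR of 1%, where the background was 2.55%. At an unadjusted p under 0.05 it was 3 by edgeR (background 14.7%) and 6 by DESeq2 (background 18.6%). At the FDR of 1% the count was 2 without Tg library 1, with rs10872465_B added, where 411 of 13413 sequences were called. DESeq2 also gave 2, where it called 926 of 13413. None had more RNA, where the background was 12.8%. Both edgeR and DESeq2 gave 0 with more RNA at an unadjusted p under 0.05, where 20.7% and 21.3% of all sequences passed. No SNP passed for both alleles, where the background was 0.400%, and DESeq2 also gave 0. At an unadjusted p under 0.05 both alleles of 1 of the 10 SNPs, rs502701, had less RNA by either tool, where 5.52% of all SNPs passed by edgeR and 7.82% by DESeq2.

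For rs502701_A the Tg libraries read -0.55, -0.76, -0.43, -0.05 and -0.60, all below 0 with library 4 closest to it. The fitted value was -0.46 ± 0.11 (SE), with an adjusted p of 0.0024, and in the second sequencing run alone the adjusted p was 0.014, above the FDR of 1%. rs502701_B read -0.26, -0.11, -0.36, -0.59 and -0.11, with a fitted value of -0.27 ± 0.11 and an adjusted p of 0.061. rs6813882_B, called in DMSO, read -0.10, -0.07, -0.16, -0.22 and -0.21 in Tg, a narrow range below 0 with a fitted value of -0.15 ± 0.081 and an adjusted p of 0.20. rs10872465_B read -0.12, -0.84, -0.77, -0.40 and -0.39, with a fitted value of -0.48 ± 0.16 and an adjusted p of 0.032. In rs78122234 the Tg libraries were mixed, from -0.40 to 0.16 for _A and from -0.30 to 0.16 for _B, and neither passed (adjusted p = 0.18 and 0.59).

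The largest spread was that of rs11892385, the member nearest to the threshold. rs11892385_A had 164 counts in the second plasmid batch. Its RNA counts in Tg libraries 1 to 5 were 0, 13, 0, 39 and 9, and in the DMSO libraries 28, 39, 30, 46 and 13. A count of 0 allows up to 3 counts, or a centred log2 ratio of up to -2.63 in Tg library 1 and -2.98 in Tg library 3, where a ratio of 0 would correspond to 18.6 and 23.7 counts. Its log2 ratios in DMSO were 0.52, 1.06, 0.55, 1.16 and -0.58, above 0 in 4 of 5 libraries, although it was chosen for a ratio below 0 in standard culture. rs11892385_B, with 307 plasmid counts, read -0.03, -1.16, -0.39, -0.71 and -0.29 in DMSO, all below 0, and 0.96, -0.25, -2.02, 1.27 and -0.57 in Tg.

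Tg and DMSO were also compared directly, RNA against RNA. The main fit left the libraries unpaired, although the paper describes the experiments as paired. None of the 20 member sequences was higher in Tg at an FDR of 1% (background 2.04%) and none was lower (background 4.17%). At an unadjusted p under 0.05 edgeR gave 0 higher and 0 lower, where 8.31% and 9.99% of all sequences passed. At the same p DESeq2 gave 1 higher, rs6813882_B (background 10.2%), and 0 lower (background 11.05%). With the replicate number as a block edgeR gave 0 higher (background 8.14%) and 1 lower (background 10.2%), rs11892385_A, with a fitted difference of -1.99 and an adjusted p of 0.13. The fitted difference of rs6813882_B was 0.19 with a 95% interval from -0.02 to 0.40 (adjusted p = 0.33). The widest was rs11892385_A, at -1.35 with an interval from -2.82 to 0.12 (adjusted p = 0.34), beside rs11892385_B at 0.77 with an interval from -0.31 to 1.86 (adjusted p = 0.50). For rs502701_A the interval was -0.25 to 0.25. The intervals are not adjusted for the number of sequences. Changes within them, and some beyond them, could therefore go uncalled at the FDR of 1%.

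The alleles of a member were compared by the difference of their log2 ratios, _B minus _A, in each library with limma over 6501 SNPs. At an FDR of 10%, 1 of 10 members differed between its alleles in DMSO, where the background was 8.57%, and none did in Tg, where the background was 2.22%. The interaction test of edgeR called no member in either condition. Of all 6501 SNPs it called 268 with _B lower and 232 with _B higher in DMSO, and 151 and 136 in Tg. At an unadjusted p under 0.05, rs3954169, rs502701 and rs11892385 differed in DMSO by limma (3 of 10, background 19.6%) and by the interaction test (background 16.1%). At that p none did in Tg by limma or by the interaction test, where 13.3% and 12.5% of all SNPs passed. The member past the test was rs3954169, which had 351 and 731 counts in the second plasmid batch. Its differences in DMSO libraries 1 to 5 were -0.58, -0.21, -0.93, -1.67 and -1.19, all below 0, with a mean of -0.92 ± 0.21 (SE) and an adjusted p of 0.066. The log2 ratios of rs3954169_A in DMSO were 0.41, 0.46, 0.92, 0.42 and 0.22, and those of rs3954169_B were -0.18, 0.24, -0.03, -1.26 and -0.99, overlapping only in that the highest of _B lay just above the lowest of _A.

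The allelic test takes the mean plasmid count as known, so the counting error of the plasmid does not enter it. On simulated counts it called more of the unchanged SNPs than edgeR's interaction test did, and more than its FDR allows, so the 8.57% and the call of rs3954169 may include such calls. In edgeR's interaction test, where it does, the difference of rs3954169 was -0.83 with an adjusted p of 0.21. The call was also lost when DMSO library 1, 3, 4 or 5 was left out (adjusted p = 0.12, 0.17, 0.13 and 0.19). Those fits called 133 to 162 of all 6501 SNPs with _B lower, against 295 in the main fit. In Tg the differences of rs3954169 were -0.93, 0.34, -1.10, 0.43 and 1.56, on both sides of 0, with a mean of 0.06 (interval -0.91 to 1.03), and in standard culture r was -0.31 for _A and -0.32 for _B. For rs502701, _B lay 0.24 ± 0.072 (SE) above _A in DMSO with an adjusted p of 0.14, and 0.19 ± 0.17 above it in Tg with an adjusted p of 0.69. For rs11892385 the mean difference was -1.04 in DMSO (interval -1.94 to -0.15, adjusted p = 0.19) and 1.84 in Tg (interval -0.03 to 3.70, adjusted p = 0.38).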

How the data were processed

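The authors deposited raw counts, in which the barcodes of each sequence were added up per library. Barcodes assigned to several sequences had been removed, and no normalization had been applied. The sources used here name no counting program. The tables of DMSO, Tg and their plasmid libraries come from 2 sequencing runs, and both runs were summed by library name. For RNA numbers 2, 4 and 6 of standard culture the table has a second column. The members were chosen with the first column of number 2 and the second columns of numbers 4 and 6. The other column of each was used only in alternatives. The number of unread per-sample columns is 0. The columns of the authors' own fold changes and p-values in the supplementary tables were not used, and positions and index SNPs were copied from there.

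The members and the tests were chosen with earlier results of these data known. Ratios per library are log2 of RNA plus 1 over the plasmid sum plus 1, centred on the median of sequences with at least 500 plasmid counts. RNA was tested against plasmid, and Tg against DMSO, with the quasi-likelihood test of edgeR 4.0.16 (TMM scaling, robust dispersion, R 4.3.3) at a Benjamini-Hochberg FDR of 1%, over all sequences whose plasmid counts averaged 10 or more. All 20 members passed this filter. The standard error is the fitted log2 ratio over the root of the F statistic, and intervals are at 95%. Alleles were compared with limma 3.58.1, after adding 1 to each count, at an FDR of 10% and over all SNPs with at least 10 mean plasmid counts for both alleles. Adjusted p-values are two-sided and from these fits over the whole table. DESeq2 1.42.0 was an alternative, and Python 3.11.15 joined the tables. Each test was tried on simulated counts, where limma's allelic test made more false calls than edgeR's interaction test and more than its FDR allows. Alternatives changed the scaling, the tool, the filter, the run, the replicate block, the libraries left out and the threshold of the rule. The named SNPs are all members, and the 3 SNPs on either side of the threshold. The other parts of the rule for names (members past the test for both alleles in both conditions, members with a supplementary sequence, shared loci) found none. The oligo sequences are human and were not at hand, so none is printed.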

Additional observations from a re-analysis of the deposited data

Results flagged for a closer look

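Over the 5 libraries of a condition, 80 sets of values were examined (the ratio of each member sequence in standard culture, DMSO and Tg, and the allelic difference of each SNP in DMSO and Tg), and in 5 of them 1 library stood apart from the other 4. Chance gives this in about 1 in 20 sets. rs13117737_A had a log2 ratio of 0.11 in DMSO library 3, where the other DMSO libraries were at -0.63 to -0.43. rs13117737_B was at 0.86 in Tg library 5, from 158 RNA counts, and without that library its fitted value in Tg was -0.18 instead of 0.11. In standard culture, rs62349869_B was at -1.01 in RNA library 4, from 34 RNA counts, and rs78122234_A at -0.16 in RNA library 2. The allelic difference of rs502701 in DMSO was -0.06 in library 1 and 0.26 to 0.37 in the others. Without library 1 it was 0.32, with an adjusted p of 0.043 in place of 0.14 (limma). No cause of these values was tested.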

How the results depend on the processing

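The number of members followed the threshold: 2 SNPs at -0.3 and 304 at -0.1. Summing all 6 RNA and plasmid numbers gave 7 SNPs, 6 of them among the 10, and the other column of each pair gave 14, with 9 of the 10; rs502701 was lost in both, and rs78122234, rs3954169 and rs62349869 in the first. Among both alleles of the 304 SNPs at -0.1, 209 sequences had less RNA than plasmid in DMSO and 73 in Tg. Both alleles did so for 61 and 11 of the 304 SNPs. The background was 8.18% and 2.55% over all sequences, and 3.06% and 0.400% over all SNPs. At -0.3 the counts were 0 and 0 sequences. In Tg the count of member sequences with less RNA was 0 over all 6 numbers and 0 with the other columns. It was 0 in run 2 only (rs502701_A, adjusted p = 0.014), where 305 of 13332 sequences were called. With DESeq2 it was 2, where 926 of 13413 were called. Scaling by total counts alone moved the median log2 RNA over plasmid of all 13413 sequences to -0.74 in DMSO and -0.81 in Tg. It called 18 and 14 of the 20 member sequences, where 12000 and 12227 of all 13413 sequences were called, so these counts are not particular to the members. Both alleles were called for 8 and 6 of the 10 SNPs, and no share over all SNPs was computed for this scaling. Leaving out 1 library gave 2 to 4 sequences in DMSO (4 without DMSO replicate 1) and 1 to 2 in Tg (2 without Tg replicate 1). Without these replicates 1254 (DMSO) and 411 (Tg) of all 13413 sequences were called with less RNA.

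Allelic effects in DMSO numbered 0 when each RNA library was set against the same-numbered plasmid library, 0 with edgeR's interaction and 0 with at least 500 plasmid counts in the second batch, which removed rs3954169, 2 in run 2 only, and 0 to 1 when 1 library was left out. The calls over all SNPs changed as well. With _B lower and higher they numbered 295 and 262 of 6501 in the main fit, and 122 and 134 with same-numbered plasmid. They were 268 and 232 with the interaction, 323 and 291 of 6180 with the 500 counts, and 256 and 242 of 6442 in run 2. With 1 library left out they were 133 to 162 and 133 to 154 of 6501. The member called was not always rs3954169. Without DMSO library 1 it was rs502701 (limma, adjusted p = 0.043), and without library 5 it was not rs3954169 either (limma, adjusted p = 0.19 for rs3954169). With the replicate number as a block (replicate block), 0 members were higher and 0 lower in Tg than in DMSO, as without it. The paper describes the DMSO and Tg experiments as paired, but the labels do not say which libraries pair. Same-numbered DMSO and Tg libraries did not deviate together: the correlations of their deviations from the group means, across 12847 sequences, were -0.04 to 0.00. Differently numbered libraries gave -0.06 to 0.05, so this measure cannot tell which libraries pair. As the labels do not give the pairs, the numbers were not taken as pairs in the main fit, which leaves the pairing out.

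Signs changed only for fitted values that did not pass the test. With total counts these were rs3954169_A (-0.26) and rs11892385_A (-0.10) in DMSO, and rs13117737_B (-0.69), rs2173086_A (-0.51) and rs11892385_B (-0.58) in Tg, all higher than the median of all sequences. rs2173086_B was at 0.093 in DMSO in run 1 only. The allelic difference of rs3954169 in Tg was -0.082 with a pseudocount of 10, -0.21 with edgeR's interaction and -0.27 in run 1 only. When 1 library was left out, the ranges that crossed 0 were -0.25 to 0.01 (rs11073334_A) and -0.11 to 0.11 (rs2173086_B) in DMSO. In Tg they were -0.21 to 0.022 (rs13117737_A), -0.18 to 0.20 (rs13117737_B), -0.64 to 0.14 (rs3954169_A), -0.11 to 0.44 (rs2173086_A), -0.44 to 0.12 (rs2173086_B), -0.19 to 0.50 (rs11892385_B) and, for the allelic difference of rs3954169, -0.32 to 0.35. The other 170 alternative values of counts and medians stayed within 1.5 times the count or 1 SD. No member has neighbouring-allele sequences, so the results planned for those have no value. Apart from the changes of membership named above, the cause of these changes was not tested. Plasmid sums under 2600 limit what 5 libraries can show for 7 of the 10 SNPs.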
